A study of Mus musculus with 36 samples.

Results

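Mouse livers collected after 28 days on a DDC diet were compared with livers collected after 7 days on the same diet, in 4 libraries per day, 8 of the 36 libraries of the series. The diet held 0.1% by weight of DDC, 3,5-diethoxycarbonyl-1,4-dihydrocollidine, and was fed to C57BL/6 mice. The submitters class day 7 as acute and day 28 as chronic cholestasis. A gene entered the comparison when its value reached 10 in at least 4 of these 8 libraries, which 11176 of the 29546 listed gene IDs did. A group of 4 mice on a control diet, for which the labels give no day, served only to say whether a gene at day 28 had moved back toward the control level or further away from it. The other groups of the series were bile duct ligation and oral cyclosporin A (15 mg/kg) at the same 2 days with their sham and olive oil controls. RNA was taken from 20 mg of liver kept in RNAlater and sequenced at the 3' end of messenger RNAs with molecular identifiers. The labels used here give neither sex nor age, and days on diet, age, day and hour of collection cannot be told apart in a comparison of this kind.

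DDC blocks the last step of heme synthesis in the mouse liver, so that protoporphyrin builds up, forms plugs in the small bile ducts and obstructs them. With continued feeding the duct epithelium proliferates, macrophages and other leukocytes gather around the portal tracts, and matrix is laid down there. Hepatocytes meanwhile divide, change their bile acid transport and shift many of the genes whose level in a healthy liver depends on sex, growth hormone or the hour of the day.

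Library totals were 2640463 to 3450091 reads in the 8 DDC libraries, with 17280 to 18534 genes detected in each, and 2081093 to 2912971 reads in the 4 control diet libraries. Pearson correlations of log2 values were 0.972 to 0.98 between day 7 libraries, 0.963 to 0.979 between day 28 libraries and 0.925 to 0.958 across the days. The first principal component, 49.1% of the variance of the 8 libraries, separated the days. The second, 14.8%, separated day 28 libraries 1 and 2 (scores 25.7 and 19.9) from day 28 libraries 3 and 4 (-18.6 and -13.1). Calls that were gained or lost with either pair alone are given below beside the gene. Of 17 hepatocyte markers, 16 were tested and none was called between the days by limma, edgeR or DESeq2, with 2 of 16 at an unadjusted p under 0.05. The summed level of these markers was 67690 to 85970 at day 7 and 68900 to 80510 at day 28, while that of 10 red cell and platelet genes was 1261 to 3710 and 3350 to 5091. Alb, the main plasma protein made by hepatocytes, had a day change of -0.06 ± 0.12 (SE) on the log2 scale (limma adjusted p = 0.803).

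Values below are the submitters' normalized counts, in library order 1 to 4, and a gene was called when limma's test on log2(value + 1) over the 8 libraries gave a Benjamini-Hochberg adjusted p under 0.05. Every log2 change is day 28 minus day 7 with its standard error (n = 4 libraries per day) unless said otherwise, and the added 1 makes it understate the change of low genes. By this test 524 genes rose and 535 fell, 9.48% of the genes tested (4.69% in the upward and 4.79% in the downward direction), and 128 of the risers and 192 of the fallers changed by over 1 log2 unit. Every count of called list members below is to be read beside these shares. A gene near 0 at 1 day can pass the filter on level only by being higher at the other day. Such a gene can count in that direction only. The day 7 and day 28 values did not overlap in 965 of these 1059 genes. Over all 11176 genes, called or not, they did not overlap in 1721. The median change of all tested genes was 0.00824. With the spread estimated over all 36 libraries in place of the 8, 252 rose and 424 fell, so that the share of rising genes went from 49.5% to 37.3%. Without day 28 library 4 the calls numbered 674, without day 7 library 1 they numbered 646 and without day 7 library 2 they numbered 643. With day 28 libraries 3 and 4 alone 918 rose and 1072 fell, and with libraries 1 and 2 alone 259 rose and 278 fell. In none of these fits did a gene called in both change its direction.

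**Figure D1:**
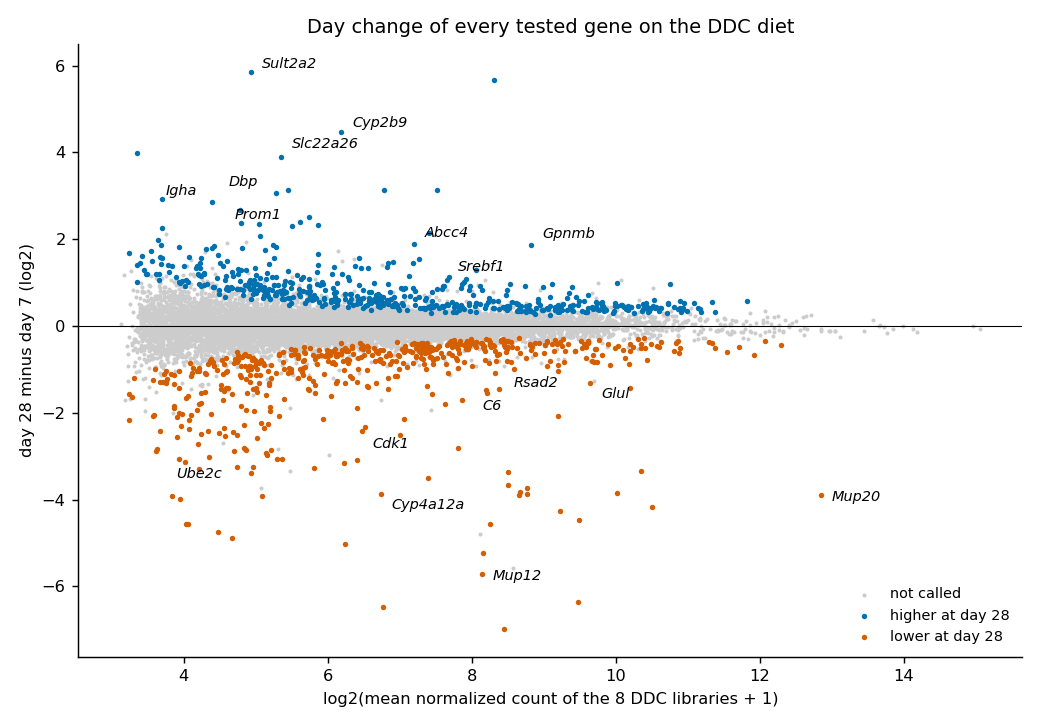
Each point is 1 of the 11176 tested genes, with the log2 of its mean normalized count over the 8 DDC libraries plus 1 on the horizontal axis and its day change (log2, day 28 minus day 7) on the vertical axis. Blue marks the 524 genes called higher and orange the 535 called lower at day 28; the lowest change is that of Mup2 and the highest that of Sult2a2.

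Of the genes called between the days, more lay farther from the control diet at day 28 than closer to it. Against that diet 51% of the tested genes were called at day 7 and 56.2% at day 28. A gene called between the days was placed as moved further from control when day 28 differed from the control diet by the same test and lay farther from it than day 7 did, and as returned when day 7 differed and day 28 lay closer. Of the 1059 genes, 745 had moved further, 251 had returned, 11 had crossed the control level and 52 could not be placed. Among rising genes 412 of 524 moved further and 84 returned. Among falling genes 333 of 535 moved further and 167 returned. The control libraries serve both placings, so the 2 differences from control are not independent of each other.

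**Figure D2:**
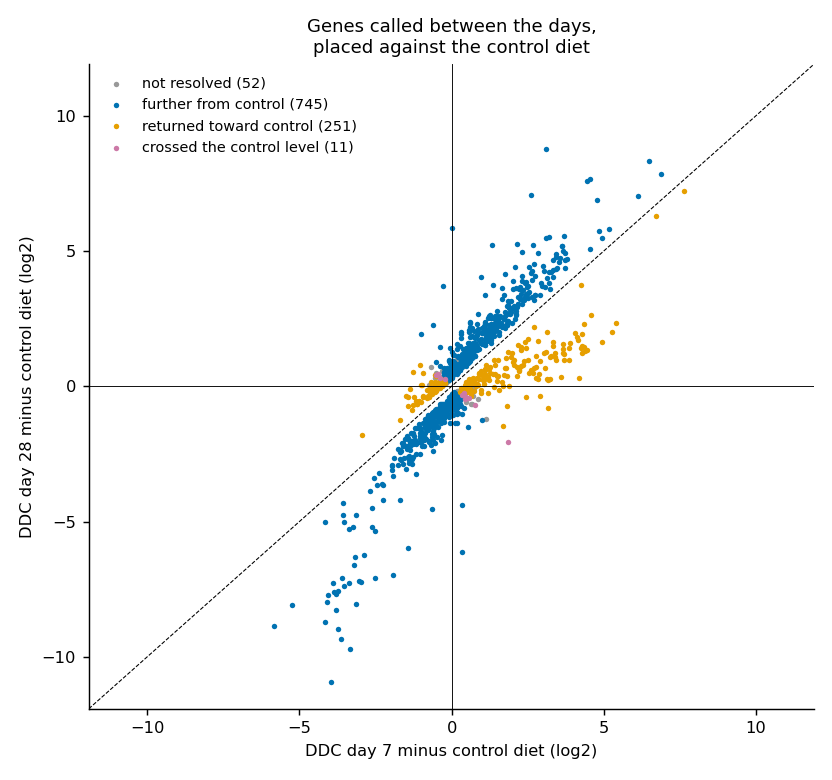
The 1059 genes called between the days, by their log2 difference from the control diet at day 7 (horizontal) and at day 28 (vertical); the dashed diagonal marks equal distance from control at both days. Blue points (745) lie farther from control at day 28, amber points (251) lie closer to it, pink points (11) changed side and grey points (52) could not be placed.

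The steepest fall was in the major urinary protein genes. These encode small lipocalins that hepatocytes of male mice secrete in large amounts for excretion in urine, and their transcription depends on pulses of growth hormone and on testosterone. Of 19 listed Mup genes 18 were tested and 16 fell, against 4.79% of all genes, with a median change of -4.22 against 0.00824. All 16 moved further from control. Mup20, the gene of the pheromone darcin, stood at 13769, 13937, 16247 and 11362 at day 7 and at 973, 1362, 672 and 803 at day 28, against 19535, 23885, 24991 and 17978 on the control diet. Its lowest day 7 value was above its highest day 28 value, and the log2 change was -3.90 ± 0.20 (limma adjusted p = 6.08e-06). Mup3 went from 1784, 1867, 966 and 880.3 to 35.1, 91.9, 48.8 and 68.9, again without overlap, a change of -4.47 ± 0.39 (limma adjusted p = 0.00111). Mup4 had the lowest p of all tested genes. Its values were 161, 170.2, 147 and 105 at day 7 and 5.02, 4.98, 1.81 and 2.76 at day 28 (-5.03 ± 0.26, limma adjusted p = 1.28e-07). Mup12 changed by -5.72 ± 0.76 (limma adjusted p = 0.00752).

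Mup genes are near-identical copies, so reads may be assigned to the wrong copy, and the sum over all 44 annotated Mup genes does not depend on that assignment within the family. That sum was 37358, 42086, 29475 and 22251 at day 7 and 1507.6, 2627.8, 1535.6 and 2434.1 at day 28, with a mean of 223430 on the control diet. On the log2 scale the sum fell by 4.02, with no overlap (exact permutation test, two-sided p = 0.0286, the smallest that 4 against 4 allows). The family held 0.918% to 1.67% of library counts at day 7 and 0.0594% to 0.107% at day 28. Mup2 (-6.98 ± 1.23, limma adjusted p = 0.02) was not called without day 28 library 3, day 7 library 1 or day 7 library 2 (adjusted p = 0.0521, 0.0629 and 0.0644). Mup13 (-6.37 ± 1.14, limma adjusted p = 0.0208) was not called without day 7 library 1, 2 or 3 (0.0664, 0.0686 and 0.0515), nor with day 28 libraries 3 and 4 alone (0.0532).

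Other genes that male hepatocytes express more than female ones fell as well. Of 16 listed male-biased genes 14 were tested, 12 fell and none rose, against 4.79% of all genes falling. The median was -1.33, and all 12 moved further from control. Cyp4a12a, an arachidonic acid hydroxylase, fell from 199.7, 204, 105 and 290.4 at day 7 to 10.04, 12.8, 11.8 and 12.9 at day 28. The control diet livers had held 2630.4, 3471, 3859.8 and 2921, so the day 7 level was already well below control and the 4 day 28 values lay close together under all day 7 values (-3.88 ± 0.25, limma adjusted p = 3.45e-06). C6, a component of the complement attack complex, was at 457, 462, 359.8 and 443 and then at 162, 147, 132 and 180.0 (-1.47 ± 0.11, adjusted p = 4.33e-06). Cyp7b1, the oxysterol hydroxylase of the alternative bile acid route, was at 184, 181, 131 and 140.2 and then at 62.4, 82.6, 66.9 and 62.5 (-1.19 ± 0.14, limma adjusted p = 1.53e-04). Neither gene's days overlapped. Ugt2b1, a glucuronosyltransferase, fell from a mean of 476 ± 20.1 to 271 ± 41.8 (SD, n = 4; limma adjusted p = 2.73e-04), and Cyp2u1, a fatty acid hydroxylase, from 65.9 ± 6.82 to 28.4 ± 5.17 (SD, n = 4; limma adjusted p = 5.61e-04).

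The organic anion transporter Slco1a1, which brings bile acids and steroids into hepatocytes and is male-biased in mice, had lost nearly all its signal by day 7. It read 1773, 1774, 1588 and 1696 on the control diet, 70.4, 31.96, 14.9 and 21.2 at day 7 and 0, 9.26, 1.81 and 5.51 at day 28, a call (-3.03 ± 0.73, limma adjusted p = 0.0329) that was lost without day 28 library 3 or 4 or day 7 library 1, 2 or 4 (adjusted p 0.0516 to 0.13), or with day 28 libraries 1 and 2 alone (0.251). Hsd3b5, a male-specific hydroxysteroid dehydrogenase, was under the level needed for testing at both days. Its mean was 526 on the control diet, and its values were 0, 0.799, 0.997 and 0 at day 7 and 0.717, 1.42, 0 and 0.918 at day 28. Sult2a8, a bile acid sulfotransferase of the mouse liver, was at 74.8, 45.5, 60.8 and 21.2 and then at 2.87, 8.55, 5.43 and 6.43 (-2.86 ± 0.38, limma adjusted p = 6.32e-04), without overlap, against a control mean of 1789.6.

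Genes with the opposite sex bias rose. Of 18 listed female-biased genes 12 were tested, 9 rose and none fell, against 4.69% of all genes, with a median of 1.70. All 9 moved further from the control diet, on which several were at or near 0. Sult2a2, a hydroxysteroid sulfotransferase, had 0 reads in all 4 control and all 4 day 7 libraries and 35.8, 81.9, 66.9 and 53.3 normalized counts at day 28, at least 98.22-fold higher when 3 reads over the day 7 group are taken as the floor (limma adjusted p = 4.36e-07). Its neighbour Sult2a1 went from 1 read over the day 7 group to 94 over the day 28 group, a ratio of 94.95 with a 95% counting interval of 16.63 to 3790 (limma adjusted p = 1.46e-04). The 2 genes are close copies and reads may pass between them. Their sum was 0, 0, 0 and 0.708 at day 7 and 52.3, 112, 78.7 and 68.0 at day 28. Both genes passed the filter on level through their day 28 values alone, so they could only count as risers. Of the untested members, Cyp3a44 had means of 3.74 at day 7 and 3.63 at day 28, and Cyp3a16 of 0.83 and 0.81. Cyp2b13 (3.34 and 9.5), A1bg (0.54 and 1.93), Hao2 (0 and 1.21) and Sult3a1 (0 and 0.18) were higher at day 28. The 9 of 12 and the median therefore describe the tested genes only.

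Cyp2b9, a female-biased cytochrome P450 that is also on the list of CAR and PXR target genes, rose from 4.36, 4.79, 17.9 and 1.42 to 149.8, 96.8, 157 and 144 (4.47 ± 0.56, limma adjusted p = 0.00278). It was listed at 0 in every control library. Only 2 of the 13 tested CAR and PXR target genes were called, Cyp2b9 upward and Aldh1a1 downward. Sult1e1, the estrogen sulfotransferase, rose from 41.4, 35.96, 45.8 and 17.7 to 184, 207, 416 and 516 (3.14 ± 0.44, limma adjusted p = 0.00695), again without overlap. Fmo2 (1.48 ± 0.20, limma adjusted p = 8.50e-04), and Abcd2, a peroxisomal fatty acid transporter (1.37 ± 0.19, limma adjusted p = 7.43e-04), rose by less. Abcd2 was not called with the spread of 12 or 36 libraries (adjusted p = 0.067 and 0.0921). Cyp2a4, a testosterone hydroxylase, was called (1.44 ± 0.31, limma adjusted p = 0.0239) but lost the call without day 28 library 1, 2 or 3 or day 7 library 1 (0.0516 to 0.0732), or with day 28 libraries 3 and 4 or 1 and 2 alone (0.128 and 0.12).

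The receptor and feedback genes through which growth hormone acts on hepatocytes were also measured. Ghr, the growth hormone receptor, was at 731, 725, 783 and 598 at day 7 and 509.7, 464, 534 and 555 at day 28, below a control mean of 2188. Its days did not overlap (-0.46 ± 0.10, limma adjusted p = 0.01). Bcl6, a repressor of female-biased genes in male liver, fell from 124, 71.1, 57.8 and 68.7 to 49.5, 30.6, 20.8 and 23.9 (-1.35 ± 0.29, limma adjusted p = 0.0132), a call not made with the spread of 12 or 36 libraries (0.116 and 0.148) or with day 28 libraries 1 and 2 alone (0.132). Igfbp3, a binding protein of insulin-like growth factors, rose from 12.3, 12.8, 19.9 and 14.2 to 57.4, 22.1, 77.8 and 87.3 (1.83 ± 0.38, limma adjusted p = 0.0129), back past the control mean of 32.3; without day 7 library 2 its adjusted p was 0.0513, and with day 28 libraries 1 and 2 alone 0.0592. Of 12 tested genes of the growth hormone axis 3 rose (Igfbp3, Cish and Socs2) and 2 fell, with a median of 0.08. Only 1 rose without day 28 library 4 or day 7 library 2, or with the spread of 12 or 36 libraries. Transcripts of 4 Y-linked genes were detected in all 12 libraries of the 2 days and the control diet.

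**Figure D3:**
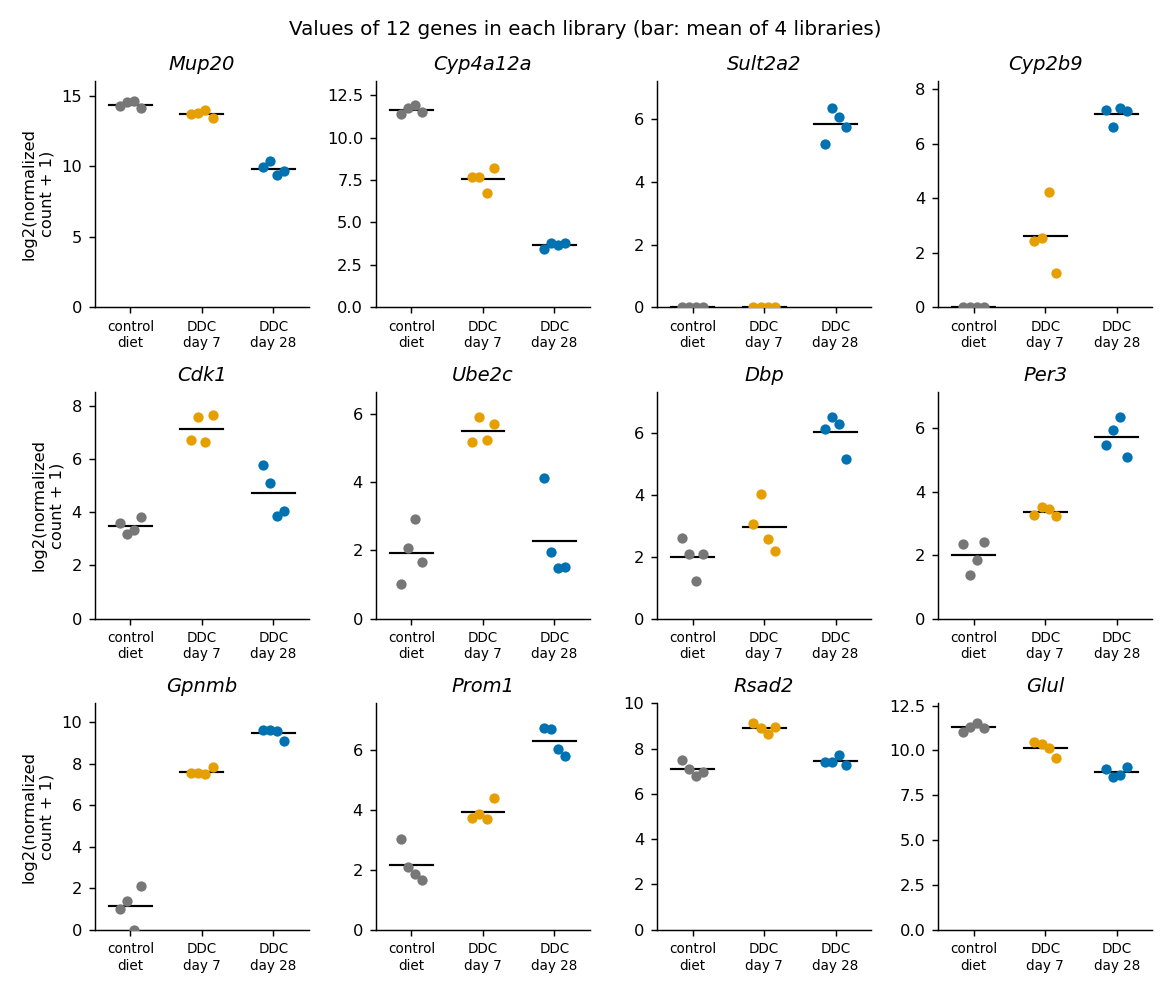
Normalized counts of 12 genes on a log2(value + 1) scale in each control diet (grey), DDC day 7 (orange) and DDC day 28 (blue) library; points are libraries and bars are means of 4. Mup20 and Cyp4a12a drop, Sult2a2 and Cyp2b9 rise from 0 or low values, and Cdk1 and Ube2c are highest at day 7.

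Cell division genes were high at day 7 and had fallen by day 28. Of 26 listed cell cycle genes 21 were tested, 12 fell and none rose, against 4.79% of all genes, and the median was -2.43. All 12 had been raised over the control diet at day 7 and returned toward it. Cdk1, the kinase that starts mitosis, was at 102, 187, 97.7 and 199.7 at day 7 and 53.8, 33.5, 13.6 and 15.6 at day 28, against 11.2, 8.095, 9.13 and 13.1 on the control diet. The highest day 28 value was below the lowest day 7 value, and within day 28 libraries 1 and 2 were above libraries 3 and 4 (-2.43 ± 0.48, limma adjusted p = 0.023). Ube2c, a ubiquitin-conjugating enzyme of the anaphase-promoting complex, was at 35.6, 59.1, 36.9 and 51.7 and then at 16.5, 2.85, 1.81 and 1.84, with day 28 library 1 well above the other 3 (-3.25 ± 0.53, limma adjusted p = 0.00497). Rrm2, the regulated subunit of ribonucleotide reductase, fell from 52.3, 78.3, 43.8 and 77.9 to 25.8, 12.8, 18.1 and 19.3 (-1.68 ± 0.24, limma adjusted p = 6.38e-04), and held its call in every alternative.

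The centromere motor Cenpe (-2.27 ± 0.35, limma adjusted p = 0.00206), the survivin gene Birc5 (-2.32 ± 0.41, 0.0116) and the spindle kinase Aurka (-2.88 ± 0.56, 0.0121) fell too. Hmmr, a spindle-binding hyaluronan receptor, was among the 12 lowest genes of the whole comparison that the naming rule selects (-3.91 ± 0.85, limma adjusted p = 0.0312). The proliferation antigen Mki67 had a change of -2.84 ± 0.80 that was not called (limma adjusted p = 0.0801), its values being 53.7, 67.9, 43.8 and 96.3 at day 7 and 22.2, 17.8, 0.904 and 6.43 at day 28, which did not overlap. It was called in 11 of 25 alternatives, among them edgeR (0.0239), DESeq2 (0.0126), the spread of 12 or 36 libraries (0.0192 and 0.00452), either pair of day 28 libraries alone (0.00388 and 0.00457), and without day 28 library 1 or 3 (0.0494 and 0.0189). The number of cell cycle genes called depended on single libraries. It was 7 without day 28 library 2, 4 without day 28 library 4, 7, 5 and 6 without day 7 libraries 1, 2 and 4, and 6 with day 28 libraries 1 and 2 alone. Cdk1 itself was not called without day 28 library 3 or 4 or day 7 library 2 (adjusted p = 0.0565, 0.0711 and 0.0641), Aurka without day 28 library 4 (0.06), and Hmmr without day 28 library 3 or any 1 day 7 library (0.0555 to 0.107). With day 28 libraries 1 and 2 alone, Cdk1, Ube2c, Cenpe and Birc5 had adjusted p = 0.0746, 0.0732, 0.0653 and 0.0599. In bulk tissue, fewer cells of a kind and less RNA per cell cannot be told apart, here and for every cell type marker below.

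Promoters of mitotic genes often carry the cell cycle genes homology region, read TTTGAA, and the CCAAT box. RefSeq promoter windows of 300 bases on build GRCm38.p6, from 250 before to 50 after the annotated start, were matched by symbol for 10 of the 12 falling cell cycle genes. The letters TTTGAA were found on either strand in 6 of the 10, against 12.1% of the windows of tested genes and 17.9% of all windows. CCAAT was found in 9 of the 10, against 38.8% of tested windows, and it was also frequent in the windows of the rising clock genes below. The windows of Cdk1 (chr10:69352863-69353162, minus strand) and Ube2c (chr2:164769679-164769978, plus strand) are shown as examples that hold TTTGAA. The windows of Rrm2 and Cenpe, which had the lowest adjusted p of the list, held none, nor did those of Birc5 and Ccnb1. Capitals mark TTTGAA, which in Ube2c lies on the opposite strand and so reads TTCAAA:
Cdk1: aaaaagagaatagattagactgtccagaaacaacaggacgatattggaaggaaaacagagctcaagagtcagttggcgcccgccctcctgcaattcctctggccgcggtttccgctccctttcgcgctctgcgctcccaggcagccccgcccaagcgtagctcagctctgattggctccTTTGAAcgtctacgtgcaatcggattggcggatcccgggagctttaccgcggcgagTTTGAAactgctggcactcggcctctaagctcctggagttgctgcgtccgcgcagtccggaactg
Ube2c: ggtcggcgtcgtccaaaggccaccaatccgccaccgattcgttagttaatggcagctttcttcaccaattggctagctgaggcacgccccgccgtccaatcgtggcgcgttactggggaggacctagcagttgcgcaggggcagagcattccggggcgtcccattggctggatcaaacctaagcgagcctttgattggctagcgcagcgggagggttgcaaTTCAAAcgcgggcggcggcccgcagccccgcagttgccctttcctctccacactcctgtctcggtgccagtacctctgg
The matches start 71 and 15 bases before the Cdk1 start and 29 bases before the Ube2c start. They are letters in a window, with no measurement of binding.

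Of 15 tested immediate early genes 4 fell (Jun, Klf2, Zfp36 and Btg2) and 1, Junb, rose. None of the list fell with the spread of 36 libraries, 2 with that of 12, 7 with day 28 libraries 3 and 4 alone and 1 with libraries 1 and 2 alone. Junb was not called without day 28 library 1, 3 or 4 or day 7 library 1 or 2. Gdf15, a stress-induced cytokine on both the p53 and the integrated stress response lists, went from 354, 376, 256 and 424 to 108, 170.2, 78.7 and 83.6. This brought it to its control range of 126, 128, 48.3 and 237 (-1.71 ± 0.25, limma adjusted p = 0.00423). Jun, a subunit of the AP-1 transcription factor, fell from 382, 384, 332 and 368 to 208, 230.0, 199 and 219 (-0.77 ± 0.09, limma adjusted p = 1.41e-04), although it was not called with the spread of 12 or 36 libraries (0.341 and 0.501). Klf2, a zinc finger factor on the list of immediate early genes, fell as well (-0.55 ± 0.12, limma adjusted p = 0.0092), though not with the spread of 36 libraries (0.0777) or with day 28 libraries 1 and 2 alone (0.0726). Of 13 tested p53 targets 2 fell, Gdf15 and Btg2, and only 1 without day 28 library 3 or day 7 library 2 or 4. Cdkn1a, the p53-driven inhibitor of cyclin-dependent kinases, was not called (-0.77 ± 0.56, limma adjusted p = 0.467), but was without day 28 library 4 (0.0457) and with day 28 libraries 1 and 2 alone (0.00419). With libraries 3 and 4 alone its change was 0.0369 (0.968). Trib3, a pseudokinase of the integrated stress response, rose (0.78 ± 0.18, limma adjusted p = 0.0129), as 1 of 9 tested genes of that list. It was not called with the spread of 36 libraries (0.326) or with day 28 libraries 1 and 2 alone (0.0662).

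Genes of the circadian clock rose as well. In the liver the activators Clock and Arntl drive Per, Nr1d and PAR-domain transcription factor genes through E-boxes, and the products of the latter act through D-boxes. Of 15 core clock genes 7 rose and 2 fell, with a median of 0.614, and of 10 clock output genes 5 rose and 1 fell, with a median of 0.871 (Nr1d1 and Nr1d2 are on both lists). Over all genes 4.69% rose and 4.79% fell. Dbp, a PAR-domain activator, was at 7.26, 15.2, 4.98 and 3.54 at day 7 and at 68.8, 90.4, 77.8 and 34.9 at day 28, against 5.07, 3.24, 1.305 and 3.27 on the control diet. All 4 day 28 values were above all others (3.07 ± 0.40, limma adjusted p = 9.41e-04). Per3 rose from 8.71, 10.4, 9.97 and 8.499 to 43.7, 61.2, 81.4 and 33.1 (2.35 ± 0.25, limma adjusted p = 7.27e-05), and its 4 day 7 values were nearly equal. Ciart, a repressor of the Clock and Arntl pair, rose from 7.99, 19.2, 2.99 and 4.25 to 45.2, 42.02, 145 and 75.3, highest in day 28 libraries 3 and 4 (3.13 ± 0.57, limma adjusted p = 0.0128).

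Tef, another PAR-domain factor, rose from 154, 157, 172 and 128 to 276, 387, 507 and 352 (1.29 ± 0.16, limma adjusted p = 5.12e-04). Hlf, the third of them, rose from 216, 164, 241 and 194 to 316, 332, 411 and 377 and so returned to its control range (0.82 ± 0.12, limma adjusted p = 0.00104). The repressors Nr1d1 (1.74 ± 0.26, limma adjusted p = 0.00101), Nr1d2 (0.92 ± 0.12, 3.60e-04) and Bhlhe41 (1.37 ± 0.26, 0.00437) rose without overlap. Rgs16, a G protein regulator with a daily rhythm in liver, rose too (2.32 ± 0.19, limma adjusted p = 6.08e-06). Clock fell, from 246, 245, 249 and 242 to 167, 177, 176 and 186 (-0.47 ± 0.09, limma adjusted p = 0.0035), and Arntl stood at 105, 83.9, 139 and 138 and 59.5, 28.5, 66.02 and 146 with no call (-0.83 ± 0.47, 0.342), but one without day 28 library 4 (0.0451) and with day 28 libraries 1 and 2 alone (0.0497). The other falls were Npas2 in the core and Tsc22d3 in the output list. Only 1 core gene fell without day 28 library 2 or 3 or day 7 library 1, 3 or 4, and no output gene fell without day 28 library 3 or 4 or day 7 library 1, 2 or 4. Only 3 core clock genes rose with the spread of 12 or of 36 libraries. In those fits Nr1d2 had an adjusted p of 0.0512 with 36 libraries, Nr1d1 of 0.0627 with 12, Bhlhe41 of 0.208 with 36 and 0.11 with 12, and Rgs16 of 0.0832 with 36. The labels give no hour of collection, and hour and days on diet cannot be told apart.

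Promoter windows were matched for 9 of the 10 distinct rising clock genes. The E-box CACGTG was present in 4 of the 9, against 10.5% of the windows of tested genes and 7.15% of all windows, and the D-box core TTATGTAA in 1, Per3, against 0.563% of tested windows. CCAAT was found in 7 of the 9, against 38.8% of tested windows, and TTTGAA in 0. The windows of Ciart (chr3:95882179-95882478, minus strand), with 3 E-boxes, and Per3 (chr4:151044616-151044915, minus strand), with 2 D-box cores, are shown because each holds the most matches of its kind. Capitals mark the matches:
Ciart: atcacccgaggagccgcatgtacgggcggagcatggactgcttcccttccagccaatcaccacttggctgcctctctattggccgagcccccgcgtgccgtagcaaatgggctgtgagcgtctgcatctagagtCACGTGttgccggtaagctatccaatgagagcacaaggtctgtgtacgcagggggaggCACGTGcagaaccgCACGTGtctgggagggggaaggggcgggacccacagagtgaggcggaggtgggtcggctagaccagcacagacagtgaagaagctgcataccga
Per3: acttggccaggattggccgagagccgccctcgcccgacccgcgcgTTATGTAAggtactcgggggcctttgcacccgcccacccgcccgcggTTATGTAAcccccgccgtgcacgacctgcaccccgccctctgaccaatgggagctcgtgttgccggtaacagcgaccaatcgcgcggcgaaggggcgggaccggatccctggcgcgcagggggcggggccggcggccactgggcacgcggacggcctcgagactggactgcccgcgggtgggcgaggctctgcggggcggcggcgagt
In Ciart the matches start 116, 58 and 44 bases before the annotated start, and in Per3 205 and 158 bases before it. All motifs were searched on both strands. None of the marked matches overlaps a match of another of the 4 motifs searched.

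Macrophage genes rose. Lipid-associated macrophages take up lipid and cell debris in injured liver and are marked by Gpnmb, Trem2 and lysosomal genes. Of 15 listed markers 14 were tested, 10 rose and none fell, against 4.69% of all genes rising, with a median of 0.920. Among these 10, Atp6v0d2 is also 1 of the 9 female-biased risers above. The sum over the list was 5883 to 7341 at day 7 and 8329 to 10180 at day 28. Gpnmb, a membrane glycoprotein of phagocytes, was at 186, 185, 177 and 229 at day 7 and 769.9, 780.5, 744 and 547 at day 28, against 1.01, 1.62, 0 and 3.27 on the control diet. Day 7 library 4 was the highest and day 28 library 4 the lowest of its group, and the days did not overlap (1.86 ± 0.12, limma adjusted p = 9.94e-07). Lpl, lipoprotein lipase, went from 1054, 968, 1237 and 1374 to 2417, 2722, 1984 and 1999.6 (0.98 ± 0.13, limma adjusted p = 4.91e-04). Trem2, the lipid-sensing receptor, rose from 15.2, 23.97, 16.9 and 18.4 to 54.5, 44.2, 43.4 and 33.1 (1.19 ± 0.20, limma adjusted p = 0.0025).

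Lgals3, a galectin (0.96 ± 0.11, limma adjusted p = 1.52e-04), Mmp12, macrophage elastase (0.96 ± 0.14, 0.00129), and Fabp5, a fatty acid carrier (1.01 ± 0.15, 9.34e-04), rose as well. Fabp5 had been below control at day 7, so its rise was a return. Among 16 tested general monocyte and macrophage markers 5 rose and none fell, against 4.69% of all genes rising, with a median of 0.442. They included the integrins Itgax (1.33 ± 0.18, limma adjusted p = 4.81e-04) and Itgam (0.86 ± 0.18, 0.00985), the fractalkine receptor Cx3cr1 (1.15 ± 0.16, 8.73e-04) and the Fc receptor Fcgr3 (0.88 ± 0.14, 0.00141). Cd68, a lysosomal protein of all macrophages, was not called (0.41 ± 0.17, limma adjusted p = 0.148), but was without day 28 library 4 (0.049) and with day 28 libraries 1 and 2 alone (0.0207). These calls depended on how the spread was estimated: with 36 libraries 2 of the lipid-associated and 1 of the general markers rose, and with 12 libraries 4 and 2. With 36 libraries Trem2, Lgals3, Mmp12, Fabp5, Itgax, Itgam and Cx3cr1 had adjusted p from 0.0849 to 0.581. Gpnmb, Lpl and Fcgr3 rose in all 25 alternatives. With day 28 libraries 3 and 4 alone, or 1 and 2 alone, 6 of the lipid-associated markers rose. With day 28 library 4 left out 8 of the general markers rose.

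Of 11 tested markers of Kupffer cells, the resident macrophages, none rose and 2 fell, with a median of 0.116. Without day 7 library 3, however, 3 rose, and without day 28 library 2 there was 1. Folr2, a folate receptor, fell from 94.4, 70.3, 105 and 70.8 to 61.7, 51.3, 38.9 and 37.7 (-0.84 ± 0.18, limma adjusted p = 0.0109), not called with the spread of 36 libraries (0.0762) or with day 28 libraries 1 and 2 alone (0.104). Clec4f, a lectin that marks Kupffer cells, changed by -0.68 ± 0.19 (limma adjusted p = 0.0451) and was not called without day 28 library 3 or 4 or any 1 day 7 library (0.0629 to 0.126), nor with day 28 libraries 1 and 2 alone (0.247).

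Some markers of 2 further leukocyte lineages were called higher. S100a8, a calgranulin of neutrophils and monocytes, was at 55.9, 64.7, 109.6 and 86.4 at day 7 and 202, 203, 248 and 253 at day 28, against 3.04, 9.71, 2.61 and 8.73 on the control diet (1.54 ± 0.18, limma adjusted p = 3.60e-04). Its partner S100a9 went from 46.5, 30.4, 75.7 and 49.6 to 134, 128, 124 and 110.2 (1.35 ± 0.22, limma adjusted p = 0.00241). In both genes every day 28 value was above every day 7 value. Neither was called with the spread of 36 libraries (0.266 and 0.268), and these were the 2 of 4 tested neutrophil markers called. The list sum was 133 to 231 at day 7 and 403 to 427 at day 28, and Ly6g, which defines neutrophils, was at 0 in all 8 libraries.

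Of 13 B and plasma cell genes 3 were abundant enough to test and all 3 rose, against 4.69% of all genes. Igha, the constant region of immunoglobulin A, was at 3.63, 1.598, 3.99 and 8.499 and then at 35.8, 37.7, 20.8 and 48.7 (2.85 ± 0.38, limma adjusted p = 4.18e-04). Jchain, which joins immunoglobulin A and M into polymers, was at 5.08, 0, 1.99 and 2.83 and then at 17.9, 19.2, 17.2 and 32.1 (2.92 ± 0.49, limma adjusted p = 0.00208). Igkc, the kappa light chain, rose with them (1.84 ± 0.36, limma adjusted p = 0.00635). Days did not overlap for these genes, whose assignment of reads among immunoglobulin segments is uncertain. Igha and Jchain passed the filter on level through their day 28 values alone, so they could only count as risers. Of the untested members, Ighm had means of 9.18 at day 7 and 5.44 at day 28. Cd79a (1.24 and 0), Cd79b (1.49 and 0.99), Ms4a1 (1.81 and 0.94), Iglc2 (2.45 and 1.68) and Pou2af1 (1.45 and 0.99) were also lower. Iglc1 (1.63 and 2.95), Mzb1 (0.36 and 1.4) and Ighg2c (0 and 0.23) were higher. Il7r, the interleukin 7 receptor of T and innate lymphoid cells, rose (1.28 ± 0.20, limma adjusted p = 0.00155) as 1 of only 2 testable T and NK cell markers. It was not called with the spread of 12 or 36 libraries (0.0502 and 0.303). The other marker, Ccl5, changed in the downward direction and was not called. The sum over the T and NK cell list was 56.7 to 67.3 at day 7 and 61.5 to 83.2 at day 28.

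**Figure D4:**
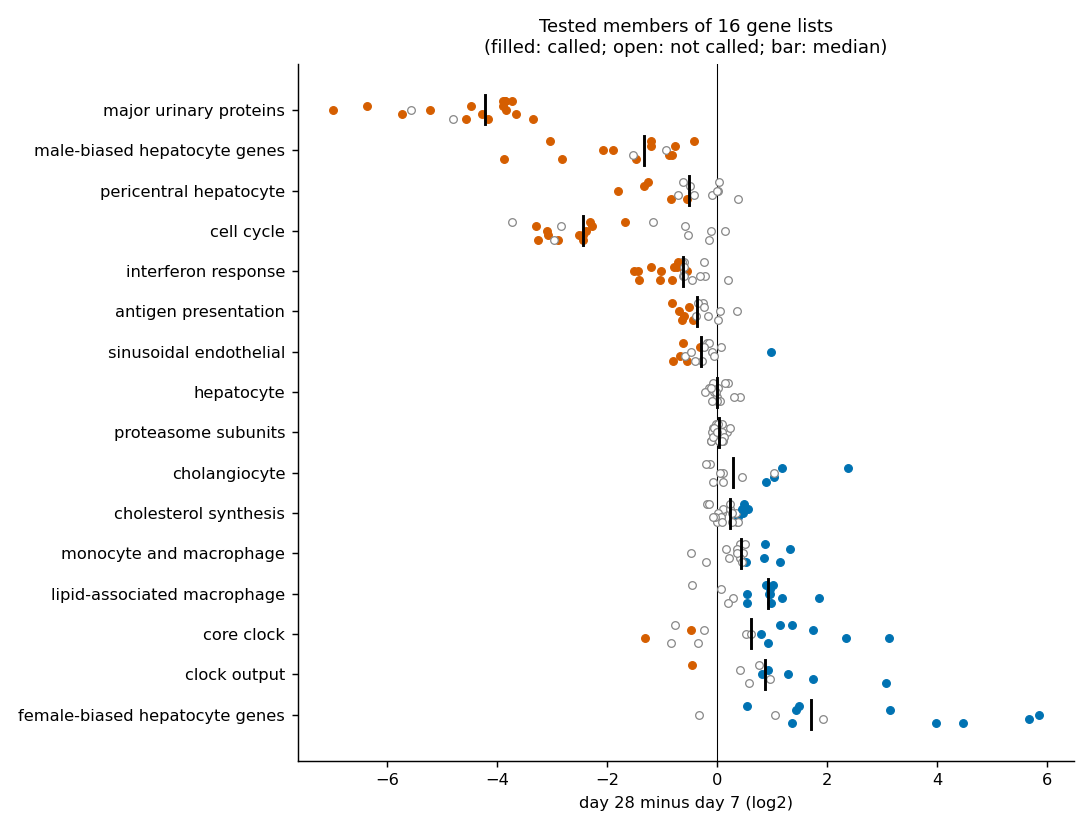
Day change (log2, day 28 minus day 7) of each tested member of 16 gene and marker lists; filled points passed the test (orange lower, blue higher), open points did not, and bars are medians. Medians run from -4.22 for major urinary proteins to 1.70 for female-biased genes, with hepatocyte markers at -0.004 and proteasome subunits at 0.032.

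Bile duct epithelium showed a rise in some markers. Of 20 cholangiocyte markers 12 were tested and 4 rose, against 4.69% of all genes, with a median of 0.283. Prom1, a glycoprotein of progenitor and duct cells, was at 12.3, 13.6, 11.96 and 19.8 at day 7 and 105, 103, 63.3 and 54.2 at day 28, against 7.096, 3.24, 2.61 and 2.18 on the control diet. Day 28 libraries 1 and 2 were higher than 3 and 4, and all were above day 7 (2.38 ± 0.24, limma adjusted p = 3.34e-05). The adhesion molecule Epcam went from 34.9, 27.97, 49.8 and 43.9 to 146, 76.9, 65.1 and 83.6 (1.19 ± 0.24, limma adjusted p = 0.0106), not called with the spread of 36 libraries (0.313). The duct keratins had the same sign without a call. Krt19 was at 10.2, 13.6, 8.97 and 12.04 and then at 50.2, 15.7, 15.4 and 25.7, which did not overlap (1.03 ± 0.33, limma adjusted p = 0.0677). It was called by DESeq2 (0.0289), with no filter on low values (0.0144), with sample weights (0.0494) and without day 28 library 2 or 3 (0.0363 and 0.0439). Krt7 was too low to test, at 7.99, 8.79, 4.98 and 4.25 and then 22.9, 12.8, 9.04 and 17.5. Spp1, osteopontin, was not called (0.05 ± 0.19, limma adjusted p = 0.911). The other called markers, Bicc1 (0.88 ± 0.20, 0.0192) and Cldn4 (1.04 ± 0.30, 0.0427), overlapped between the days. With the spread of 36 libraries their adjusted p was 0.153 and 0.161, and with that of 12 it was 0.13 and 0.122. Neither was called without day 28 library 4 or day 7 library 2 (0.0561 to 0.123), which left 2 called markers, and Bicc1 was also lost without day 7 library 3 (0.0547) and with day 28 libraries 3 and 4 alone (0.106). Cldn4 was also lost without day 28 library 1 or 3 or day 7 library 1 or 4 (0.0608 to 0.12), and with day 28 libraries 1 and 2 alone (0.322).

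Few matrix genes passed the test. Of 24 tested fibroblast and matrix genes 3 rose, the proteoglycans Dcn (0.60 ± 0.17, limma adjusted p = 0.0462) and Bgn (0.47 ± 0.13, 0.0421) and the intermediate filament Vim (0.51 ± 0.13, 0.0245), and the median was 0.05. None of these 3 was called without day 28 library 4, day 7 library 1 or day 7 library 2 (0.0729 to 0.132), and 1 was without day 28 library 1 or 3 or day 7 library 3. The adjusted p of Dcn, Bgn and Vim was 0.176, 0.291 and 0.0579 with day 28 libraries 1 and 2 alone. With the spread of 36 libraries it was 0.0877, 0.372 and 0.348, and that of Vim was 0.132 with the spread of 12. Col1a1, the main chain of collagen I, stood at 145, 209, 186 and 272 at day 7 and 248, 147, 132 and 212 at day 28 (-0.14 ± 0.24, limma adjusted p = 0.765), against a control mean of 20.05. The smooth muscle actin Acta2, a marker of activated stellate cells, changed by -0.51 ± 0.30 (limma adjusted p = 0.33). The tissue inhibitor Timp1 changed by 0.29 ± 0.35 (limma adjusted p = 0.666), whereas the related inhibitor Timp2 rose from 144, 150.2, 147 and 171 to 365, 263, 305 and 387 (1.09 ± 0.12, 9.14e-05). Mmp7, matrilysin, which is made by injured duct epithelium, rose from 5.81, 3.995, 10.96 and 12.04 to 49.5, 31.3, 34.4 and 66.1 with a control level of 0 in all 4 libraries (2.38 ± 0.33, limma adjusted p = 7.36e-04). Of 10 tested stellate cell markers 2 rose, and 1 without day 28 library 1 or 4 or day 7 library 1, 2 or 3.

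Interferon-stimulated genes fell. Of 25 listed 22 were tested, 11 fell and none rose, against 4.79% of all genes falling, with a median of -0.622. They did not share 1 position: 3 returned toward control, 7 moved below it and 1 could not be placed. Rsad2, viperin, belonged to the first kind. It was at 566, 482, 397 and 498 at day 7 and 171, 172, 213 and 154 at day 28, against 180.4, 138, 109.6 and 125 on the control diet (-1.45 ± 0.12, limma adjusted p = 6.36e-06). Oasl1, an oligoadenylate synthase homologue, followed it from 44.3, 57.5, 40.9 and 40.4 to 20.1, 20.7, 15.4 and 11.02, close to its control mean of 19.7 (-1.42 ± 0.22, limma adjusted p = 0.00119). Ifit1, which binds viral RNA, belonged to the second kind. It went from 58.1, 37.6, 44.8 and 45.3 to 16.5, 21.4, 18.99 and 8.27, against 87.2, 63.1, 40.5 and 46.9 on the control diet (-1.52 ± 0.26, limma adjusted p = 0.0024). Bst2, tetherin (-0.81 ± 0.11, limma adjusted p = 6.30e-04), and Ifi27 (-0.73 ± 0.11, 0.00141) also ended below control. With the spread of 36 libraries 7 genes of the list fell.

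Genes of antigen presentation on MHC class I fell by less. The antigen presentation list held genes of MHC class I and of class II. Of 14 tested 6 fell and none rose, against 4.79% of all genes falling, with a median of -0.364 over both classes. The 6 were H2-K1, H2-D1, Tap1, B2m, Psmb8 and Psmb9, all of the class I pathway. The tested class II genes, H2-Aa, H2-Ab1, H2-Eb1, Cd74, H2-DMa and H2-DMb1, were not called. H2-K1, a class I heavy chain, was at 3683, 3563, 3906 and 3312 and then at 2309.8, 2282, 2390.2 and 2513 (-0.61 ± 0.08, limma adjusted p = 5.65e-04). H2-D1, the second class I heavy chain, went from 1782, 1507, 1748 and 1363 to 1098, 1051, 1163 and 1171 (-0.51 ± 0.10, limma adjusted p = 0.00528), and neither gene's days overlapped. Tap1, a subunit of the peptide transporter, fell too (-0.82 ± 0.17, limma adjusted p = 0.00819), but not with day 28 libraries 1 and 2 alone (0.0725). Only 3 of the list were called without day 7 library 1, 2 or 3, with day 28 libraries 1 and 2 alone, or with the spread of 36 libraries.

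Among sinusoidal endothelial markers 5 of 16 fell and 1 rose, against 4.79% of all genes falling and 4.69% rising, with a median of -0.289. Stab2, the scavenger receptor that clears hyaluronan, was at 80.6, 91.9, 104 and 98.4 and then at 48.7, 51.98, 56.1 and 56.03 (-0.80 ± 0.13, limma adjusted p = 0.00149). Its control values, 97.3, 79.3, 80.9 and 86.2, lay with day 7. Dnase1l3, a secreted nuclease, went from 68.2, 77.5, 69.8 and 73.7 to 48.03, 39.2, 49.7 and 44.1 (-0.67 ± 0.13, limma adjusted p = 0.00661), further below a control mean of 150.1. Ehd3, an endocytic trafficking gene, fell as well (-0.54 ± 0.11, limma adjusted p = 0.00749), though not with the spread of 36 libraries (0.0702). The riser was Cd36, a fatty acid transporter that hepatocytes and macrophages also express, from 321, 313, 483 and 387 to 705, 689, 841 and 686 (0.97 ± 0.13, limma adjusted p = 5.45e-04). Without day 28 library 4, day 7 library 1 or day 7 library 4, 3 markers fell. Of 4 tested vascular endothelial markers none was called by limma, and 0 had an unadjusted p under 0.05.

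Hepatocytes pump bile acids and other solutes into bile through canalicular exporters and, when bile flow is obstructed, into blood through basolateral ones. Abcc4, which pumps bile acid conjugates across the basolateral membrane, was at 50.1, 55.9, 55.8 and 87.1 at day 7 and 258, 276, 193 and 195 at day 28, against 14.2, 8.095, 7.83 and 9.82 on the control diet. The days did not overlap, with day 7 library 4 above its group (1.89 ± 0.18, limma adjusted p = 3.34e-05). Abcc4 was the 1 called gene of 3 tested basolateral exporters, whose median was 0.548. Abcc3 and Slc51b had the same sign without a call. At the canalicular membrane 3 of 9 exporters rose and 2 fell. The sterol half-transporters rose together: Abcg8 went from 119, 113, 111 and 87.1 to 169.9, 192, 194 and 192 (0.80 ± 0.12, limma adjusted p = 7.43e-04) and Abcg5 changed by 0.72 ± 0.16 (0.012). Abcb1a, a multidrug exporter, rose from 107, 145, 128 and 130.3 to 161, 221, 215 and 207 (0.65 ± 0.13, limma adjusted p = 0.00533), with a control mean of 9.08. Abcg5 and Abcb1a were not called with the spread of 36 libraries (0.124 and 0.184), nor Abcg5 with day 28 libraries 1 and 2 alone (0.134).

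Exporters of phospholipid and bile salts fell. Abcb4, the phospholipid flippase, was at 1756, 1812, 1799 and 1679.9 and then at 1366, 1373, 1195 and 1196, back toward a control mean of 1074 (-0.46 ± 0.08, limma adjusted p = 0.00353). Abcb11, the bile salt export pump, went from 897, 832, 739 and 560.2 to 459, 558, 300.2 and 331 (-0.90 ± 0.22, limma adjusted p = 0.0329). That call was lost when any 1 of day 28 libraries 1, 3 and 4 or day 7 libraries 1, 2 and 3 was left out (0.0519 to 0.0972), and with day 28 libraries 1 and 2 alone (0.128). Of 6 sinusoidal uptake transporters 2 fell, and 1 without day 28 library 3 or 4 or day 7 library 1, 2 or 4. The main bile acid uptake transporter Slc10a1 split by library pair at day 28. Its values were 386, 306, 442 and 336 at day 7 and 315, 329, 599.6 and 589 at day 28, with libraries 3 and 4 high (0.26 ± 0.24, limma adjusted p = 0.562), and with those 2 libraries alone it was called (0.71; adjusted p = 0.00189).

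Bile acid synthesis genes fell in 4 of 16 cases (2 with day 28 libraries 1 and 2 alone), with a median of -0.232, led by Cyp7b1 above and by Akr1c6, a 3-alpha and 17-beta hydroxysteroid dehydrogenase (-0.57 ± 0.10, limma adjusted p = 0.00269), which was not called with the spread of 36 libraries (0.209). Cyp7a1, the rate-limiting enzyme, was at 478, 480.2, 893 and 273 and 738, 746, 254 and 158 and was not called (-0.33 ± 0.64, limma adjusted p = 0.804). Cyp8b1, the sterol hydroxylase needed for cholic acid, was at 164, 67.9, 294 and 136 and 55.2, 39.9, 26.2 and 65.2 (-1.70 ± 0.48, 0.0807). Its day 7 libraries spread widely but did not overlap with day 28, and it was called by DESeq2 (0.00472), with the spread of 12 or 36 libraries (0.0334 and 0.00234), without limma's trend and robust options (0.0496) and without day 7 library 2 (0.0221). Nr0b2, the nuclear receptor SHP that represses both, fell from 92.2, 71.1, 37.9 and 42.5 to 24.4, 34.2, 23.5 and 26.6 (-1.06 ± 0.26, limma adjusted p = 0.0204), the 1 called gene of 10 bile acid and xenobiotic receptors. Its call was lost without day 28 library 3 or 4 or day 7 library 1 or 2 (0.0553 to 0.0684), and with day 28 libraries 1 and 2 alone (0.202). Fgf21, a hepatic hormone, was at 20.3, 12.8, 5.98 and 34.7 and 8.603, 8.55, 8.14 and 1.84 and was too low to test.

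DDC acts on heme synthesis. None of 10 tested genes of that pathway was called between the days by limma, edgeR or DESeq2, and 1 had an unadjusted p under 0.05. Of 10 tested genes of heme breakdown and porphyrin export 1, the heme exporter Flvcr1, rose. It was not called without day 28 library 3 or 4 or day 7 library 1, 2 or 3, with day 28 libraries 1 and 2 alone, or with the spread of 36 libraries. Fech, the ferrochelatase, was at 505, 543, 518 and 465 at day 7 and 437, 458, 500.1 and 480.4 at day 28 (-0.11 ± 0.09, limma adjusted p = 0.451). Alas1, the first enzyme, was at 571, 707, 598 and 474 and 566, 714, 791 and 682 (0.23 ± 0.13, 0.285), and the heme oxygenase Hmox1 at 441, 413, 520.2 and 580.0 and 459, 367, 561 and 362 (-0.17 ± 0.15, 0.527). The values of each of these 3 genes overlapped between the days. Hamp, the iron hormone hepcidin, was not called (0.05 ± 0.17, limma adjusted p = 0.899), but was with day 28 libraries 3 and 4 alone (0.0399), while Smad7, which restrains its induction, rose (0.63 ± 0.14, 0.0135), except with the spread of 36 libraries (0.0781) or with day 28 libraries 1 and 2 alone (0.109).

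Mallory-Denk bodies, the keratin and p62 aggregates that DDC feeding causes in hepatocytes, are built from gene products of which 3 of 12 tested fell. Sqstm1, which encodes p62, was at 2235, 2459, 1996 and 2227 and then at 1618, 1612, 1501 and 1485, closer to a control mean of 1145 (-0.52 ± 0.09, limma adjusted p = 0.00212). Hspb1, a small heat shock protein, went from 312, 272, 257 and 196 to 111, 94.7, 56.97 and 87.3, further below control (-1.58 ± 0.20, limma adjusted p = 7.43e-04), and Hspa1b, an inducible HSP70, fell too (-1.21 ± 0.25, 0.00769), though not with the spread of 36 libraries (0.176). Krt8, the keratin of the aggregates, was at 1458, 1795, 1245 and 1519 and 1362, 1446, 987 and 987 with overlap (-0.34 ± 0.15, limma adjusted p = 0.173). With day 28 libraries 3 and 4 alone 6 genes of the list fell, Krt8 among them (0.00377).

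Genes of the NRF2 antioxidant response moved both ways, with 4 of 20 falling and 1 rising. Gstm2, a glutathione transferase, fell from 573, 698, 672 and 832 to 422, 432, 294 and 313 (-0.93 ± 0.14, limma adjusted p = 0.00182), still above a control mean of 143. Gstm3, a near copy of other mu class genes so that its reads are less certain, fell by less (-0.51 ± 0.11, limma adjusted p = 0.00983). Nqo1, the quinone reductase, rose from 89.3, 86.3, 116 and 105 to 142, 122, 169 and 122 (0.48 ± 0.14, limma adjusted p = 0.0385). It was not called without day 28 library 1 or 3 or day 7 library 1, 2 or 4 (0.054 to 0.122), nor with the spread of 12 or 36 libraries (0.174 and 0.246) or with day 28 libraries 1 and 2 alone (0.139). The falling genes numbered 2 without day 7 library 2 and 1 with the spread of 36 libraries. Gstm3 was not called with the spread of 36 libraries (0.595) or after quantile normalization (0.0869), nor with day 28 libraries 1 and 2 alone (0.0838). Over all 20 glutathione transferases 6 fell and 2 rose; with the spread of 36 libraries 2 fell and none rose, and without day 28 library 4 or day 7 library 1 none rose.

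Of 14 tested pericentral markers 5 fell and none rose, against 4.79% of all genes falling, with a median of -0.51. Glul, glutamine synthetase of the last hepatocytes around the central vein, was at 1421, 1294, 1125 and 752 at day 7 and 489.6, 372, 395 and 549 at day 28, against 2131, 2532, 2988 and 2471 on the control diet (-1.32 ± 0.20, limma adjusted p = 0.00433). Its adjusted p was 0.057 with day 28 libraries 1 and 2 alone. The glutamate transporter Slc1a2 of the same cells fell from 358, 319, 328 and 224 to 78.9, 78.3, 80.5 and 113 (-1.79 ± 0.16, limma adjusted p = 1.79e-05). Rgn, regucalcin (-0.84 ± 0.12, limma adjusted p = 7.41e-04), and Gulo, which makes vitamin C (-0.54 ± 0.11, 0.00905), fell without overlap, Gulo not with the spread of 36 libraries (0.0706). Among 12 periportal markers 2 fell. Cyp2f2, a cytochrome P450 of periportal cells, went from 1780.2, 1748, 1844 and 1453 to 554, 835, 729 and 466, against a control mean of 4494 (-1.43 ± 0.16, limma adjusted p = 5.02e-04). Pigr, the receptor that carries polymeric immunoglobulin A into bile, went from 894, 778, 860.0 and 793 to 515, 607, 553 and 540.1 (-0.59 ± 0.09, limma adjusted p = 8.33e-04). Otc, the urea cycle enzyme, fell as well (-0.66 ± 0.10, limma adjusted p = 0.00116), as did Bhmt. They were 2 of 24 tested genes of the urea cycle and amino acid catabolism, against 4.79% of all genes. Only 1 of that list fell without day 28 library 1 or 2 or day 7 library 1, 2 or 3.

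Some lipid genes were called in each direction, beside 4.69% of all genes rising and 4.79% falling. Srebf1, the activator of fatty acid synthesis genes, rose from 136, 139.8, 142 and 105 to 282, 249, 295 and 255, back to a control mean of 267 (1.05 ± 0.11, limma adjusted p = 7.27e-05). Thrsp, a lipogenic nuclear protein, went from 132, 162, 94.7 and 118 to 212, 259.9, 424 and 242, still below control (1.14 ± 0.22, limma adjusted p = 0.0125). These were the 2 risers of 16 lipogenesis genes, whose median was -0.072. In cholesterol synthesis 5 of 22 rose, with a median of 0.24, led by the squalene epoxidase Sqle (0.46 ± 0.09, limma adjusted p = 0.00419) and Hsd17b7, a sterol reductase (0.49 ± 0.09, 0.00447). None of the 5 was called with the spread of 36 libraries, and 2 or 3 were without day 28 library 1, 2 or 3 or day 7 library 1 or 4. Acot1, a fatty acyl thioesterase under PPAR-alpha control, fell from 27.6, 39.95, 35.9 and 44.6 to 17.2, 11.4, 8.14 and 11.02 (-1.58 ± 0.24, limma adjusted p = 0.00117), as 1 of 3 falling genes of 22 in fatty acid oxidation, where Ppara rose. Without day 28 library 3 or 4 or day 7 library 2, 1 gene of that list fell and none rose; without day 7 library 1, 1 fell.

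Among secreted plasma proteins some genes were called in each direction. Of 24 acute-phase genes 3 rose, against 4.69% of all genes, and 1, Crp, fell, against 4.79%. Crp was not called without day 28 library 3 or 4 or any 1 day 7 library. Lcn2, the siderophore-binding lipocalin, went from 320.2, 237, 322 and 299 to 665, 557, 480.2 and 518, against 1.01, 4.86, 3.91 and 4.36 on the control diet (0.91 ± 0.12, limma adjusted p = 3.74e-04). Apcs, serum amyloid P, rose (0.52 ± 0.10, limma adjusted p = 0.00532), and Saa1, serum amyloid A, was not called (-0.12 ± 0.13, 0.642). Lcn2 and Apcs were not called with the spread of 36 libraries (0.733 and 0.359). Of 25 coagulation and complement genes 6 fell and 1 rose. The complement genes C1s1 (-0.57 ± 0.09, limma adjusted p = 0.00119) and C9 (-0.74 ± 0.15, 0.00957) fell, and Kng1, kininogen, rose from 2947, 2745, 3314 and 2584 to 4113, 4077, 4622 and 4457 (0.58 ± 0.09, 0.00179). Without day 28 library 4 or day 7 library 1 or 2 the falling genes numbered 3. The chemokine Ccl2 was not called (0.20 ± 0.18, limma adjusted p = 0.544).

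Further genes among the 12 highest rises were the organic anion transporter Slc22a26, at 3.63, 1.598, 10.96 and 3.54 and then 65.95, 69.8, 94.96 and 68.9 (3.89 ± 0.38, limma adjusted p = 7.27e-05), Lrtm2 (3.14 ± 0.36, 0.00134) and Cpe, carboxypeptidase E (2.51 ± 0.25, 6.86e-05). Some gene groups were measured at high levels without a call by limma, edgeR or DESeq2. Among 27 proteasome subunits the median was 0.032, with 1 unadjusted p under 0.05. Among 13 mitochondrially encoded genes the median was -0.113, with 1 such p, and among 28 nuclear genes of oxidative phosphorylation it was 0.005, with none.

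The same 2 days were sampled after bile duct ligation and under cyclosporin A, and the difference between day changes was tested in a limma fit to the 24 treated libraries. Against cyclosporin A the day change differed for 583 genes, 5.22% of those tested, 304 of which were among the 1059. Of the 16 falling Mup genes all 16 differed, their list median being 0.188 under cyclosporin A. The clock output list had a median of -1.52 there. Dbp, up by 3.07 on the DDC diet, changed by -4.71 under cyclosporin A, a difference of 7.78 ± 1.05 (limma adjusted p = 2.39e-04). Nr1d1 changed by 1.74 and -3.04, a difference of 4.78 ± 0.55 (2.26e-05). Gpnmb changed by 1.86 and -1.67, a difference of 3.52 ± 0.89 (0.0265). For Cdk1 the changes were -2.43 and -1.16 and the difference of -1.27 ± 0.93 was not called (adjusted p = 0.472). Without cyclosporin A day 7 library 4 the called differences numbered 146 upward and 202 downward, against 247 and 336 with it, and without DDC day 28 library 3 they numbered 165 and 221.

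Against ligation 67 genes differed, 0.599% of those tested, 12 of them among the 1059. List medians after ligation were -4.63 for Mup genes, -1.44 for male-biased, 2.37 for female-biased and -2.60 for cell cycle genes, against -4.22, -1.33, 1.70 and -2.43 on the DDC diet. For lipid-associated macrophage markers the median was -0.196 after ligation and 0.920 on the DDC diet. Of the genes named here and called between the days, Srebf1 was the 1 whose day change was called different, 1.05 against 0.03, a difference of 1.02 ± 0.21 (limma adjusted p = 0.0225). Of those not called between the days, Saa1 (2.90 ± 0.54, limma adjusted p = 0.0209) and Cyp8b1 (-2.86 ± 0.57, 0.024) differed too. None of the 3 was called without ligation day 7 library 1, and Cyp8b1 was also lost without DDC day 7 library 1, DDC day 28 library 2, ligation day 7 library 2 or ligation day 28 library 2 or 3. Srebf1 and Saa1 were not called with the spread of 36 libraries. The number of called differences ran from 1 upward and 1 downward without ligation day 7 library 1 to 829 and 644 without ligation day 28 library 1, and lay between 15 and 93 upward and 6 and 50 downward without any other 1 library, so that a missing call does not show that the 2 models moved alike.

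**Figure D5:**
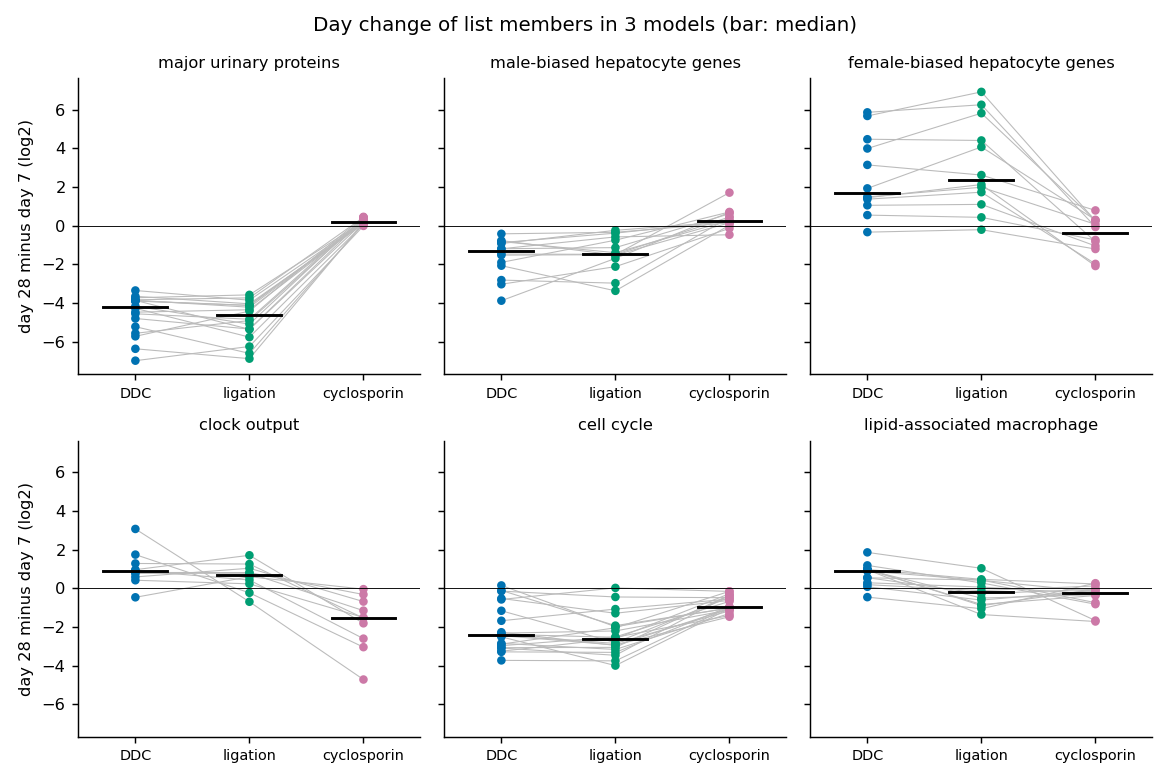
Day change (log2, day 28 minus day 7) of the members of 6 lists in the DDC, bile duct ligation and cyclosporin A models; grey lines join the same gene and bars are medians. Major urinary proteins have medians of -4.22 and -4.63 in the first 2 models and 0.188 under cyclosporin A, and clock output genes 0.871, 0.692 and -1.52.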

How the data were processed

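RNA of 36 mouse livers was read with a 3' end kit with molecular identifiers; 12 livers (DDC day 7, DDC day 28 and control diet, 4 each) carry the results and 12 more (ligation and cyclosporin A at both days) a comparison. The deposited values have the unit signal: gene counts divided by 1 factor per library, so that 0 values were off a whole read (tolerance 0.001 read). Per the submitters' processing notes the tools included STAR 2.7.9a, UMI-tools 1.1.1, DESeq2, Trim Galore and RSEM 1.3.1, on build GRCm39, with no role or order given.

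Of 29546 IDs, 425 had no symbol. Genes at 10 or more in at least 4 of the 8 DDC libraries were fitted on log2(value + 1) with limma 3.58.1 (trend and robust; R 4.3.3), Benjamini-Hochberg adjusted over 11176 genes; edgeR 4.0.16 and DESeq2 1.42.0 on the recovered whole reads served as alternatives. Control diet placings came from a fit to 12 libraries, comparisons of models from one to 24. Scripts were tested on simulated data. Library totals, 2081093 to 3450091 reads in the 12 libraries, set the precision, and intervals and floors cover counting error only.

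Named genes were a set of anchor genes, the 12 highest and 12 lowest called genes whose groups did not overlap and whose higher mean reached 50 (predicted genes left out), and up to 5 genes of lowest adjusted p per list described. Other named genes were chosen after their values were seen. The comparison, its members and the lists were chosen with earlier results of these data known. The design text gives 4 mice per group, and p-values measure the spread between them. Results on some genes are not reported here.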

Additional observations from a re-analysis of the deposited data

Results flagged for a closer look

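In 16 of the 276 groups of 4 libraries examined for the named genes (5.8%), 1 library stood apart from the other 3, its gap to the nearest being over Dixon's 95% limit for 4 values. Chance does this in about 1 in 20 groups. The normalized counts that stood above the others of their group were those of Ugt2b1 in day 28 library 2 (333, against 242 to 257), Sult2a1 in day 7 library 4 (0.708, against 0 to 0), Ube2c in day 28 library 1 (16.5, against 1.81 to 2.85), Gpnmb in day 7 library 4 (229, against 177 to 186), Fcgr3 in day 7 library 3 (123, against 79.1 to 82.2), Jchain in day 28 library 4 (32.1, against 17.2 to 19.2), Cd36 in day 28 library 3 (841, against 686 to 705), Abcc4 in day 7 library 4 (87.1, against 50.1 to 55.9), Slc1a2 in day 28 library 4 (113, against 78.3 to 80.5) and Slc22a26 in day 28 library 3 (95, against 66 to 69.8). The normalized counts that stood below the others of their group were those of Gpnmb in day 28 library 4 (547, against 744 to 780), Igkc in day 7 library 2 (3.2, against 9.97 to 11.3), Spp1 in day 7 library 1 (929, against 1300 to 1330), Abcg8 in day 28 library 1 (170, against 192 to 194), Srebf1 in day 7 library 4 (105, against 136 to 142) and Sqle in day 28 library 3 (465, against 504 to 512). Of these 16 groups 4 were set by day 7 library 4.

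The day change on the DDC diet differed from that under cyclosporin A, by limma's test of the difference at an adjusted p under 0.05, for 55 of the called genes named above. The difference (DDC minus cyclosporin A, log2) was above 0 for Dbp (7.78), Sult2a2 (5.93), Ciart (5.78), Cyp2b9 (5.29), Nr1d1 (4.78), Per3 (4.44), Rgs16 (4.38), Igha (4.31), Sult2a1 (3.72), Cyp2a4 (3.53), Nr1d2 (3.52), Gpnmb (3.52), Bhlhe41 (3.47), Slc22a26 (3.44), Abcd2 (3.35), Lrtm2 (3.21), Cpe (2.91), Jchain (2.87), Tef (2.82), Abcc4 (2.27), Igfbp3 (2.24), Trib3 (2.08), Abcb1a (2), Trem2 (2), Abcg8 (1.77), Abcg5 (1.48), Fmo2 (1.42), Hlf (1.14), Srebf1 (1.04), Fcgr3 (1.02) and Nqo1 (0.97). It was below 0 for Mup2 (-6.97), Mup13 (-6.52), Mup12 (-6.18), Mup4 (-5), Mup3 (-4.66), Mup20 (-4.1), Sult2a8 (-2.89), Aurka (-2.73), Hspb1 (-2.45), Gdf15 (-2.35), Acot1 (-1.96), C6 (-1.91), Cyp7b1 (-1.81), Cyp2f2 (-1.47), Glul (-1.41), Clock (-1.2), Klf2 (-1.08), Stab2 (-0.88), H2-K1 (-0.79), Cyp2u1 (-0.73), C1s1 (-0.65), Ghr (-0.65), Pigr (-0.59) and Sqstm1 (-0.52). Of these 55, Cyp2u1 kept its call in 6 of 22 alternatives, Cyp2f2, Aurka and Hspb1 in 7, Klf2 in 9, Nqo1 in 10 and Sult2a1 in 11. Against bile duct ligation the day change differed for 1 of the called genes named above, Srebf1 (1.02).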

How the results depend on the processing

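Of the 138 tested genes named with values, 118 were called, 57 of them in each of the 25 alternatives (23 planned, 2 added after seeing the data), and none changed sign while called. For the day change, higher genes numbered 252 with the spread of 36 libraries, 312 to 532 leaving out 1 library, 918 with day 28 libraries 3 and 4 only and 259 with 1 and 2 only; lower genes numbered 325 to 603, 1072 and 278. Against the control diet, total-count scaling gave 5442 higher and 1085 lower genes at day 7 and 5615 and 1383 at day 28. The cyclosporin A difference gave 407 higher genes with total-count scaling, 411 with the 4 groups of the contrast alone, and 146 to 284 higher and 202 to 361 lower leaving out 1 library. The ligation difference gave 112 and 76 with 36 libraries, 61 higher with total-count scaling, 159 and 127 with quantile normalization, 72 and 44 with a pseudocount of 5, and 1 to 829 and 1 to 644 leaving out 1 library. The causes were not tested.

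The replicate numbers did not pair the samples: 0 of 4 same-numbered pairs had deviations correlated over 0.1 (-0.137 to 0.088). With the number in the description as a replicate block 511 genes were higher and 532 lower (16 falling Mup genes became 10, and 59 genes were higher in the ligation difference). With the number in the title, which 6 libraries share, 263 were higher and 290 lower, Hamp was at -0.13 and Arntl was called (0.00664).

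Genes without a call changed sign as follows. With day 28 libraries 3 and 4 only, Ccl2 was at -0.048, Spp1 at -0.193, Timp1 at -0.318, Alb at 0.078 and Cdkn1a at 0.0369. With libraries 1 and 2 only, Slc10a1 was at -0.176, Cyp7a1 at 0.609, Hamp at -0.278 and Saa1 at 0.0973. Leaving out 1 library gave Spp1 -0.109 to 0.207 (also -0.0789), Col1a1 -0.301 to 0.0071 (also 2e-04), Timp1 -0.0399 to 0.594, Cyp7a1 -0.649 to 0.0947, Hamp -0.0826 to 0.162 (also -0.0392 and -0.0457), Saa1 -0.211 to 0.0407 and Alb -0.136 to 0.0243. Quantile normalization gave Alb 0.0057. Depth limits genes near 0 reads in a group, such as Sult2a1, Sult2a2 and Slco1a1, whose log2 changes depend on the added 1.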
